A study of Homo sapiens with 12 samples.

Results

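Transcripts of 9 genes of blood coagulation, for receptors, the initiator tissue factor and inhibitors, were followed in 3 human lung cancer cell lines after knockdown of NRF2, the transcription factor encoded by NFE2L2. The genes were taken by name after the gene identifiers of the deposited files had been matched to symbols, and they are 9 of the 57815 genes in each file. They were the 4 protease-activated receptor genes F2R, F2RL1, F2RL2 and F2RL3, the tissue factor gene F3, the tissue factor pathway inhibitor genes TFPI and TFPI2, and the thrombomodulin and endothelial protein C receptor genes THBD and PROCR.

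The labels call A549 and H2023 lung adenocarcinoma lines and H460 a large cell carcinoma line. All 3 lines, control and knockdown groups alike, carry a KEAP1 mutation, which leaves NRF2 persistently active. Cells were transfected with control siRNA or with an siRNA against NRF2, and RNA was taken 48 h later, with 2 libraries in each of the 6 groups. The control libraries were duplicates, whereas the knockdown libraries of a line came from different siRNAs, number 28 in one and number 30 in the other, so that the spread of a knockdown group includes the difference between siRNAs. A549 was grown in high glucose medium and its RNA was depleted of rRNA, while H2023 and H460 were grown in low glucose medium and their RNA was selected for polyA. Line, medium and RNA preparation therefore cannot be told apart between A549 and the other lines, and each group describes a transient knockdown in a single established line.

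Protease-activated receptors are G protein-coupled receptors that carry their own ligand: a protease cuts the extracellular end, and the new end folds back and activates the receptor. F2R (PAR1), F2RL2 (PAR3) and F2RL3 (PAR4) are cut by thrombin, whereas F2RL1 (PAR2) is cut by trypsin-like proteases and by the tissue factor complex. Tissue factor starts the cascade that makes thrombin, TFPI and TFPI2 are Kunitz-type protease inhibitors, and thrombomodulin and the protein C receptor turn thrombin towards the activation of protein C, which slows coagulation.

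The sequence upstream of the start is shown for the 3 members whose window held a match to the AP-1 motif, a site bound by dimers of JUN and FOS proteins. Windows of 250 bases before the start come from RefSeq promoters (GRCh38.p14) that each matched GRCh37 exactly and once. A window was at hand for 7 of the 9 members, F2RL1, F2RL2, F2RL3, F3, TFPI, TFPI2 and PROCR. They are written 5′ to 3′ along the gene, with AP-1 matches in capitals.
F2RL2, chr5:75919229-75919478, minus strand: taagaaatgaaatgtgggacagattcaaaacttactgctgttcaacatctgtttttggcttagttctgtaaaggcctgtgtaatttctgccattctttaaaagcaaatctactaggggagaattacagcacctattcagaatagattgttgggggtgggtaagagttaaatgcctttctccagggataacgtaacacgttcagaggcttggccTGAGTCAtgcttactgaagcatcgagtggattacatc
F3, chr1:95007316-95007565, minus strand: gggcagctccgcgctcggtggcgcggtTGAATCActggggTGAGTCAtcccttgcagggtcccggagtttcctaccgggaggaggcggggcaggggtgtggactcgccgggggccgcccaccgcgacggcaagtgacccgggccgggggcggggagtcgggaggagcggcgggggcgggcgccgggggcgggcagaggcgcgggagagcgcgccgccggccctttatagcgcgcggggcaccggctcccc
TFPI2, chr7:93520066-93520315, minus strand: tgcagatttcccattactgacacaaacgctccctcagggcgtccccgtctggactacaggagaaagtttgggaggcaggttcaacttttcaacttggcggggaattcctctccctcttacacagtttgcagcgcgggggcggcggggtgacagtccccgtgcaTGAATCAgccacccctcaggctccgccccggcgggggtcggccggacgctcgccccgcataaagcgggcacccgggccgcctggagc
The AP-1 motif was searched as TGANTCA, which reads alike on both strands. F2RL2 held TGAGTCA from 37 to 31 bases before the start. F3 held TGAATCA from 223 to 217 and TGAGTCA from 210 to 204 bases before the start, and TFPI2 held TGAATCA from 87 to 81 bases before it. Such a match was present in 6.57% of all 35116 RefSeq promoter windows of this length. The antioxidant response element core, TGACNNNGC, through which NRF2 binds DNA, begins with the same 3 letters as the AP-1 motif. It was searched on both strands and matched none of the 7 windows, against 10.9% of all windows. The C/EBP motif, TTGCNNAA, also searched on both strands, likewise matched none of the 7, against 9.05% of all windows. These are matches of letters in a short window and were not tested as binding sites. The RefSeq start lies inside the GENCODE gene by 10 bases for F2RL2, 97 bases for F2RL1 and 11325 bases for TFPI, whose window is therefore far from the GENCODE start.

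All levels are FPKM, a level scaled to transcript length and library size. All differences are NRF2 siRNA minus control siRNA after taking log2(FPKM + 1), a scale on which low genes appear to change less than they do. A gene was tested in a line if it reached 1 FPKM in at least 2 of the 4 libraries, and a change was called at an adjusted p (limma, Benjamini-Hochberg over all genes tested) under 0.05. NFE2L2 itself checked the labels. It stood between 30.9 and 144 FPKM in the 6 control libraries and between 5.31 and 12.2 FPKM in the 6 knockdown libraries, and it fell in A549 (adjusted p = 0.0178), H2023 (adjusted p = 0.00529) and H460 (adjusted p = 0.0111). NQO1, a classical NRF2 target, also fell in the 3 lines, with log2 changes of -2.38, -3.15 and -1.95. Between 12732 and 13909 genes reached 1 FPKM in a library, and relative depth within a line lay between 92.3% and 107.6% of its first control library. Absolute depth is unknown. Mitochondrial transcripts took 8.56% and 13.1% of the FPKM sum in the H460 controls and 20.8% and 26.0% in the H460 knockdown libraries. In H2023 that share ran from 11.97% to 22.8% and in A549 from 0.892% to 1.56%. Of 5 epithelial markers, 5, 5 and 4 reached 1 FPKM in at least 2 libraries of A549, H2023 and H460. None of 5 lung epithelial markers (NKX2-1, NAPSA, SFTPB, SFTPC, SCGB1A1) did so in any line, and NAPSA alone passed 1 FPKM in a library, at 1.25 FPKM in H2023 with siRNA 30. None of the 4 endothelial markers measured reached 1 FPKM, with a summed level of at most 0.214 FPKM in any library. In RNA from whole cultures, fewer cells of a type and less RNA per cell cannot be told apart.

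Across the 9 members, F2RL2 was the gene that fell, and the changes called among the others were all increases. The study itself had picked F2RL2 from these libraries as a gene lowered by the knockdown in every line, so its fall and the tests of it are no independent evidence of direction. In A549, 8 members were tested and none was called, where 0.554% of all tested genes were called lower and 0.122% higher. An unadjusted p under 0.05 was found for 5 of 8 members in A549, 2 of 8 in H2023 and 5 of 7 in H460, against 13.3%, 16.9% and 33.7% of all tested genes. Each count includes F2RL2, and the members were chosen with earlier results of these data known. In H2023, 8 members were tested, with F2RL2 called lower (0.583% of all genes) and TFPI2 called higher (0.327% of all genes). In H460, 7 members were tested, with F2RL2 called lower (6.86% of all genes) and F2R and TFPI called higher (7.12% of all genes). F2RL3 was tested in none of the lines and F2RL1 not in H460. On simulated data the test within a line made more false calls than its threshold allows, so calls close to the threshold, such as TFPI2 and F2RL2 in H2023, are less firm than their adjusted p reads. In H2023 and H460 nearly all calls over the whole table were lost when either control library was left out, from 82 lower and 46 higher to at most 11 and 1 in H2023 and from 922 lower and 957 higher to at most 4 and 1 in H460. The median change of the tested A549 members was 0.58, that of H2023 0.50 and that of H460 0.68, beside 0.02, 0.02 and -0.01 over all tested genes.

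**Figure D1:**
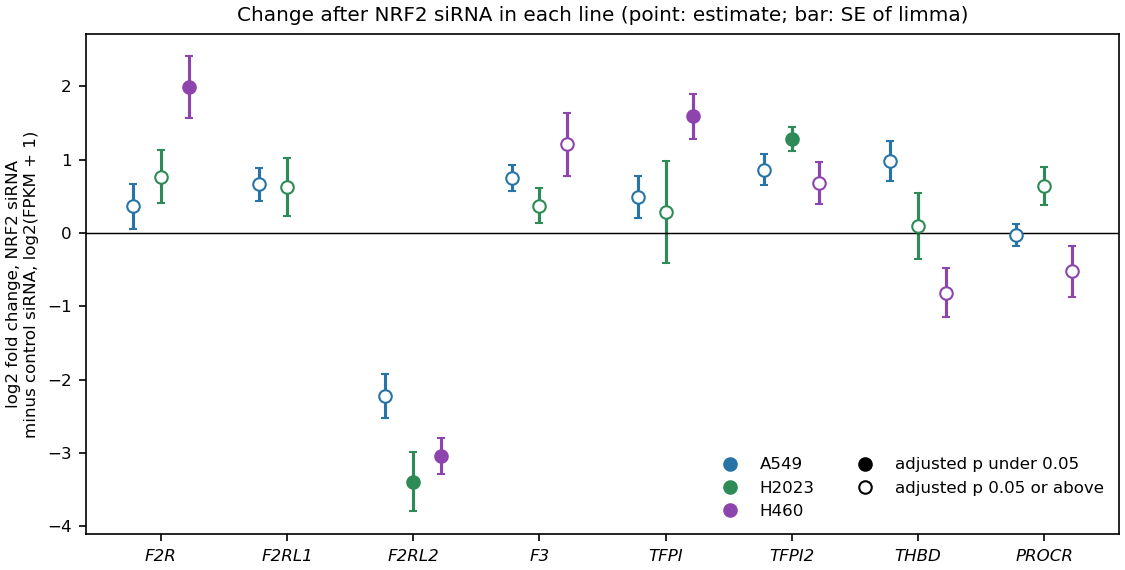
Change of 8 members after NRF2 siRNA in A549 (blue), H2023 (green) and H460 (purple), as limma's log2 fold change (vertical axis, log2(FPKM + 1) scale, NRF2 siRNA minus control siRNA) with its SE as bars. Filled points have an adjusted p under 0.05: F2RL2 in H2023 and H460, F2R and TFPI in H460, and TFPI2 in H2023. F2RL2 lies below -2 in every line.

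F2RL2 (ENSG00000164220.6, chr5:75911307-75919238, minus strand, GRCh37) encodes PAR3, which binds thrombin and is known to serve as a cofactor for the cutting of other receptors. With control siRNA it measured 58.8 and 50.3 FPKM in H2023, and with siRNA 28 and siRNA 30 it measured 6.94 and 2.501 FPKM. The groups were far apart, by 11.6-fold in their means, and the change was -3.39 ± 0.40 (SE, n = 2 each, limma adjusted p = 0.0395). In H460 the controls were at 41.6 and 39.6 FPKM and the knockdown libraries at 3.52 and 4.65 FPKM. This was a 9.93-fold difference of means and a change of -3.04 ± 0.25 (SE, n = 2 each, limma adjusted p = 0.00965). A549 held much less of the transcript, 3.27 and 6.58 FPKM with control siRNA against 0.231 and 0.205 FPKM with NRF2 siRNA. There the change of -2.22 ± 0.30 missed the threshold (limma adjusted p = 0.0573), although both knockdown values lay below both controls, as for 20.5% of genes tested in A549, with a 22.6-fold ratio of means. F2RL2 entered the A549 test only through its control libraries. With a pseudocount of 0.1 in place of 1 the A549 change was -3.90 (limma adjusted p = 0.0324), and the same setting took H2023 to an adjusted p of 0.0561. In H2023 and H460 the call was lost without either control library, as were nearly all calls over all genes, with adjusted p between 0.0729 and 0.213 in limma. The change itself was then -3.28 and -3.50 in H2023 and -3.01 and -3.07 in H460.

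The genes most like F2RL2 were ranked by Pearson correlation over the 12 libraries, with each line centred on its own mean, among 11570 genes tested in every line. SRXN1, which encodes sulfiredoxin, came first (r = 0.983), followed by the cytochrome P450 gene CYP4F11 (r = 0.980), the pentose phosphate gene PGD (r = 0.980), the pseudogene NMRAL2P (r = 0.979) and the Notch receptor gene NOTCH3 (r = 0.978). NFE2L2 ranked 10 with r = 0.972 and NQO1 ranked 22 with r = 0.958. The points share the knockdown, so any gene that fell in the 3 lines ranks high. Among the other members TFPI2 had r = -0.867, F2R r = -0.691, F3 r = -0.676, TFPI r = -0.439, PROCR r = -0.107 and THBD r = -0.090.

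F2R (ENSG00000181104.6, chr5:76011951-76031595, plus strand) encodes PAR1, the main thrombin receptor of many cell types. In H460 it stood at 1.71 and 1.41 FPKM with control siRNA, at 14.2 FPKM with siRNA 28 and at 5.76 FPKM with siRNA 30. Both knockdown values were above both controls, as for 31.1% of genes tested in H460. F2R rose there by 1.99 ± 0.42 (SE, n = 2 each, limma adjusted p = 0.0328), a 6.40-fold ratio of means. In H2023 the controls had 2.04 and 1.55 FPKM and the knockdown libraries 5.55 and 2.43 FPKM. The H2023 groups were separated upwards, as for 27.0% of genes tested there, but the change of 0.77 ± 0.36 did not pass (limma adjusted p = 0.361). It was 1.23 without the siRNA 30 library and 0.30 without the siRNA 28 library. In A549 the controls had 5.86 and 7.12 FPKM, and the knockdown values of 11.9 and 6.11 FPKM overlapped them (0.36 ± 0.30, limma adjusted p = 0.665). The H460 call was lost without the first control library (2.07), without the second (1.90) and without the filter on low values (1.99), where at most 1 gene of the whole table was called higher. Its adjusted p ranged from 0.00209 to 0.211 over 11 alternatives.

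F2RL1 (ENSG00000164251.4, chr5:76114758-76131140, plus strand) encodes PAR2, the receptor of the family that thrombin does not cut efficiently. It was the most abundant receptor transcript of A549, with 22.96 and 19.3 FPKM in the controls and 41.2 and 27.8 FPKM in the knockdown libraries. Both knockdown values lay above both controls, as for 25.2% of genes tested in A549, and the change was 0.66 ± 0.22 (SE, n = 2 each, limma adjusted p = 0.304). In H2023 the controls at 2.61 and 1.62 FPKM overlapped the knockdown values of 5.72 and 2.37 FPKM (0.63 ± 0.39, limma adjusted p = 0.481). In H460 it was below 1 FPKM in every library but that of siRNA 28, at 0.241 and 0.135 FPKM with control siRNA, 3.44 FPKM with siRNA 28 and 0.325 FPKM with siRNA 30, and it was not tested. F2RL3 (ENSG00000127533.3, chr19:16999810-17003417, plus strand), which encodes the platelet receptor PAR4, was listed at 0 in all H2023 and H460 libraries and did not exceed 0.0601 FPKM in A549.

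The makeup of the receptor transcripts differed between lines and between siRNAs, here as shares of the summed FPKM of the 4 receptor genes. In the H2023 controls F2RL2 was 92.7% and 94.1% of that sum, and in the H460 controls it was 95.5% and 96.2%. With NRF2 siRNA the F2RL2 share was 38.1% and 34.2% in H2023, where F2R and F2RL1 each made up between 30.5% and 33.3%. In H460 F2R led after knockdown, with 67.1% of the sum for siRNA 28 and 53.7% for siRNA 30, while F2RL2 made up 16.6% and 43.3%. A549 was led by F2RL1 in all 4 libraries, at 71.6% and 58.5% with control siRNA and 77.3% and 81.4% with NRF2 siRNA. The summed receptor level fell from 63.4 and 53.5 FPKM to 18.2 and 7.31 FPKM in H2023 and from 43.5 and 41.1 FPKM to 21.1 and 10.7 FPKM in H460. In A549 it was 32.1 and 33.1 FPKM with control siRNA and 53.4 and 34.2 FPKM with NRF2 siRNA. These shares and sums follow from the values above and were not tested.

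**Figure D2:**
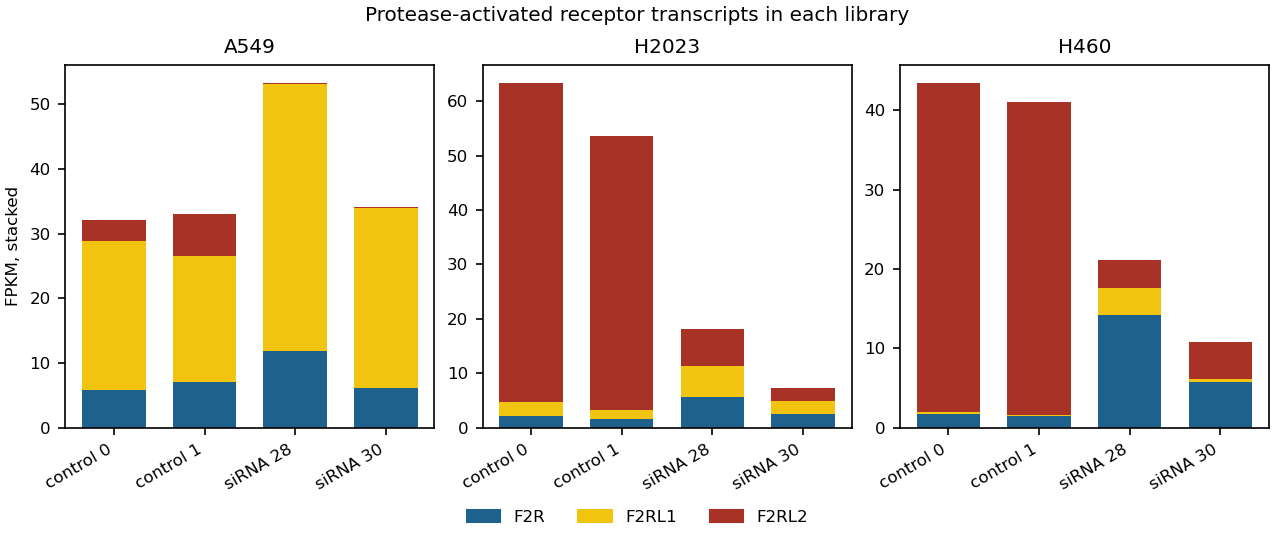
Stacked FPKM (vertical axis, from 0, with its own scale in each panel) of F2R, F2RL1 and F2RL2 in the 4 libraries of each line. F2RL2 fills over 90% of the bar in the H2023 and H460 controls and is the smallest part of every A549 bar.

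The 3 receptor genes on chromosome 5 lie side by side, the start of F2R 92.7 kb and that of F2RL1 195.5 kb from the start of F2RL2, yet they did not move together. Of 24 genes within 500 kb of F2RL2, 9 were tested in A549, 7 in H2023 and 7 in H460. F2RL2, on which the window was set, was the only one called lower, in H2023 and H460, and F2R the only one called higher, in H460. Of all tested genes 0.583% were called lower in H2023, and 6.86% lower and 7.12% higher in H460. AGGF1, the nearest tested gene beyond F2RL1, changed by no more than 0.16 in any line and was not called. F2RL2 overlaps IQGAP2, a scaffold protein gene on the opposite strand, with 87 exonic bases in common. The libraries were strand-specific, but whether the FPKM estimate used strand is not given in the sources used here. F2R, F2RL1, TFPI, TFPI2 and PROCR also share between 39 and 304 exonic bases with a gene on the opposite strand, so their values carry the same uncertainty. IQGAP2 was tested in A549 only, at 15.9 and 9.06 FPKM with control siRNA and 10.1 and 15.3 FPKM with NRF2 siRNA (0.04 ± 0.31, limma adjusted p = 0.971).

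**Figure D3:**
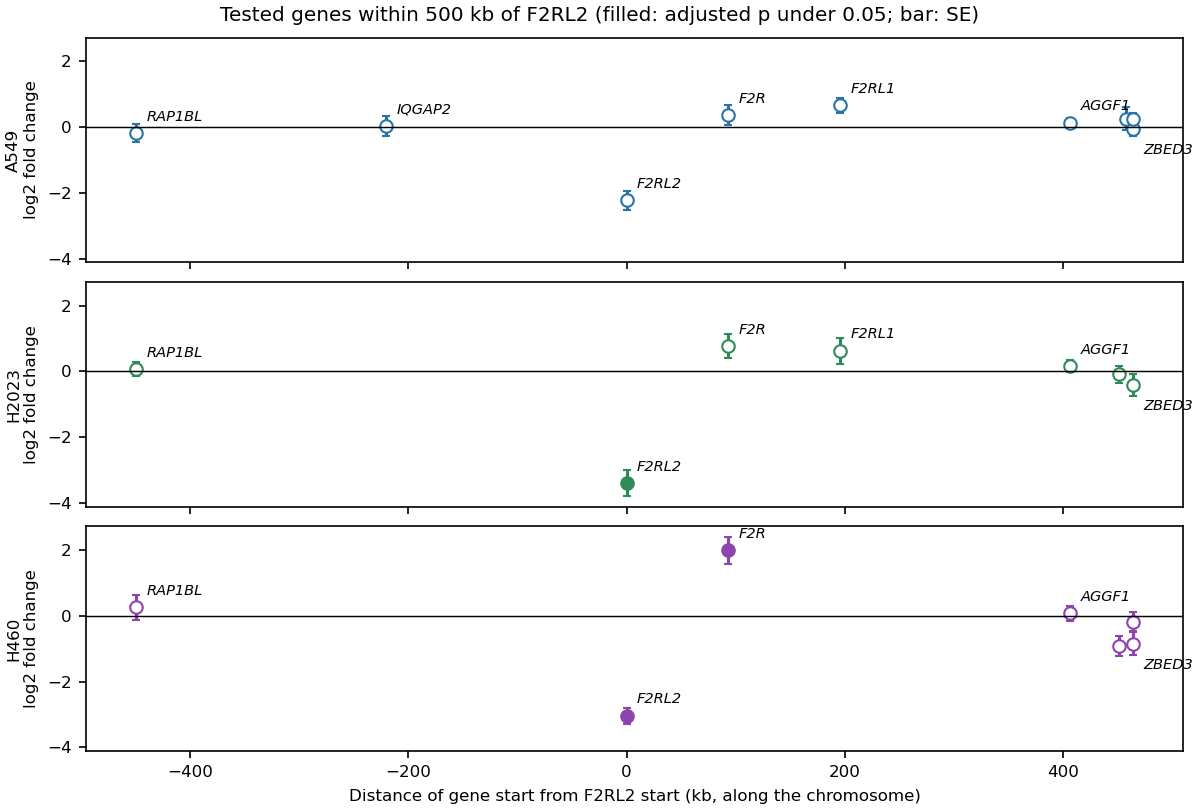
Log2 fold change after NRF2 siRNA (vertical axis, with SE bars) of the tested genes within 500 kb of F2RL2, by the distance of their start from the F2RL2 start in kb (horizontal axis), one panel per line. Filled points have an adjusted p under 0.05, which are F2RL2 in H2023 and H460 and F2R in H460.

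F3 (ENSG00000117525.9, chr1:94994729-95007315, minus strand) encodes tissue factor, the cell surface initiator of coagulation and, with factor VIIa, an activator of PAR2. In H460 it stood at 4.25 and 5.70 FPKM with control siRNA, 8.05 FPKM with siRNA 28 and 19.8 FPKM with siRNA 30. The change of 1.21 ± 0.43 (SE, n = 2 each) was not called (limma adjusted p = 0.105), but it passed in 3 of 11 alternatives, among them the fit of all 12 libraries (limma adjusted p = 0.0211). It was 1.81 without the siRNA 28 library and 0.61 without the siRNA 30 library. In A549 the controls had 3.22 and 2.96 FPKM and the knockdown libraries 6.59 and 5.24 FPKM (0.75 ± 0.17, limma adjusted p = 0.191). In H2023 the values were 8.46 and 7.19 FPKM against 12.2 and 8.77 FPKM (0.37 ± 0.24, limma adjusted p = 0.494). F3 thus passed the test as set in none of the lines, while its knockdown values lay above both controls in all 3. Groups separated upwards in this way held for 25.2% of tested genes in A549, 27.0% in H2023 and 31.1% in H460.

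TFPI (ENSG00000003436.10, chr2:188328957-188430487, minus strand) encodes the inhibitor of the tissue factor complex and of factor Xa. In H460 it rose from 82.0 and 71.4 FPKM to 176 FPKM with siRNA 28 and 306 FPKM with siRNA 30, by 1.59 ± 0.31 (SE, n = 2 each, limma adjusted p = 0.0287). That call was lost without the first control library (1.69, limma adjusted p = 0.187), without the second (1.49, limma adjusted p = 0.168), without the filter and in 1 fit of all 12 libraries. H2023 had the highest TFPI values of the study and the widest spread, 596 and 325 FPKM with control siRNA, 1100 FPKM with siRNA 28 and 261 FPKM with siRNA 30. The knockdown values lay on either side of the controls, with an estimate of 0.28 ± 0.70 (limma adjusted p = 0.885). It became -0.75 without the siRNA 28 library, -0.15 without the second control and 1.32 without the siRNA 30 library. In A549 the controls at 63.3 and 45.6 FPKM overlapped the knockdown values of 98.2 and 58.5 FPKM (0.49 ± 0.29, limma adjusted p = 0.535).

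TFPI2 (ENSG00000105825.7, chr7:93514708-93520065, minus strand) encodes a related inhibitor that acts on plasmin, trypsin and other matrix proteases. H2023 moved from 129 and 131 FPKM to 352 and 285 FPKM, a 2.45-fold ratio of means, by 1.28 ± 0.17 (SE, n = 2 each). The adjusted p in limma was 0.04998, at the threshold itself, and it stayed under the threshold in 6 of 11 alternatives. Without the first or the second control library the change was 1.27 and 1.29 and the adjusted p in limma 0.390 and 0.341. A549 moved from 159 and 139 FPKM to 225 and 327 FPKM (0.86 ± 0.21, limma adjusted p = 0.213). The A549 change was 1.13 without the siRNA 28 library and 0.59 without the siRNA 30 library. H460 moved from 81.7 and 48.8 FPKM to 97.5 and 106 FPKM (0.68 ± 0.29, limma adjusted p = 0.156), with a change of 1.05 without the first control and 0.32 without the second. In every line both knockdown values were above both controls, as for 25.2% of tested genes in A549, 27.0% in H2023 and 31.1% in H460, though only H2023 was called.

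**Figure D4:**
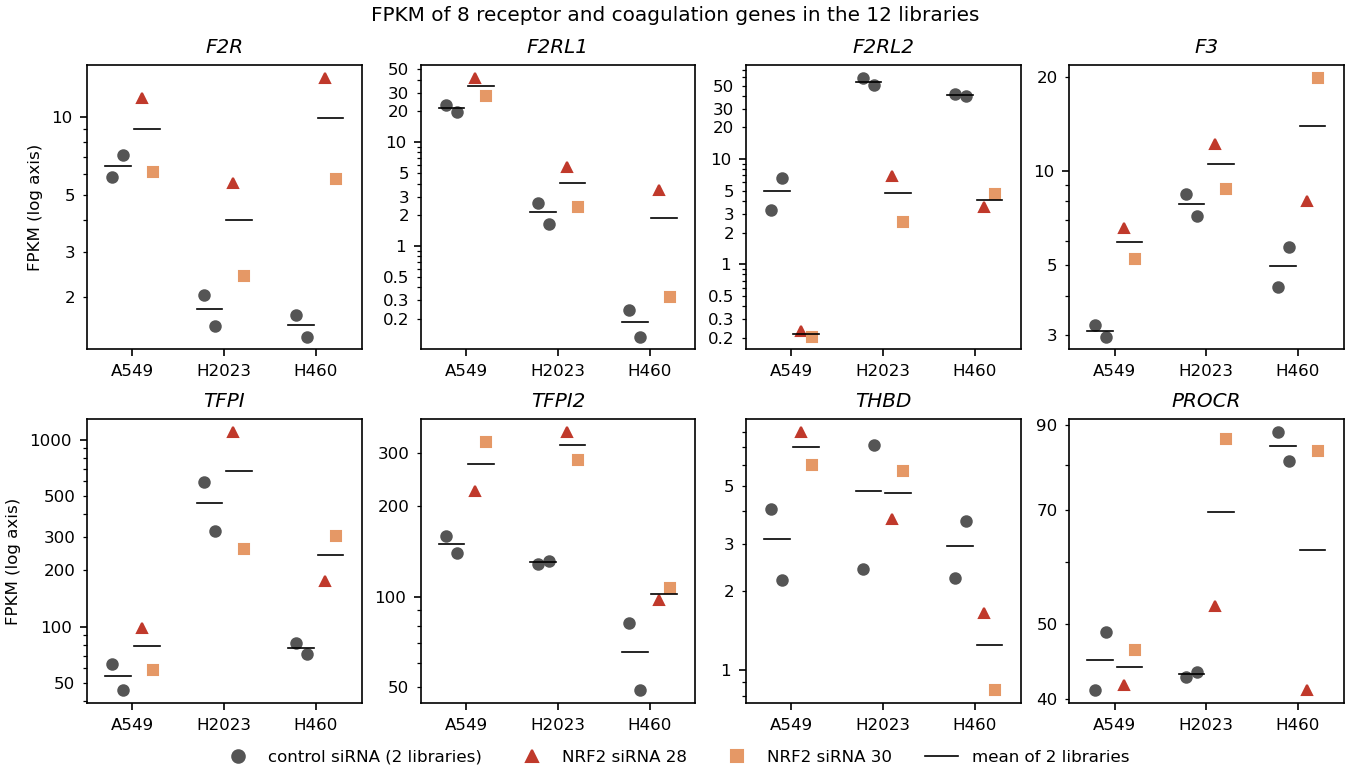
FPKM (vertical axis, log scale, different in each panel) of 8 members in the 12 libraries, with control siRNA as grey circles, NRF2 siRNA 28 as red triangles and siRNA 30 as orange squares, and the mean of each group as a line. F2RL2 is lower with both siRNAs in each line, F3 and TFPI2 are higher with both siRNAs in each line, and for F2R and F2RL1 the triangle lies above the square in each line.

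THBD (ENSG00000178726.6, chr20:23026270-23030309, minus strand) encodes thrombomodulin, which binds thrombin and redirects it to protein C. In A549 it measured 4.09 and 2.20 FPKM with control siRNA and 7.98 and 5.997 FPKM with NRF2 siRNA, a difference of 0.98 ± 0.27 (SE, n = 2 each, limma adjusted p = 0.244). In H460 the order was the opposite, 2.23 and 3.66 FPKM in the controls and 1.65 and 0.836 FPKM in the knockdown libraries, a difference of -0.81 ± 0.33 (limma adjusted p = 0.140). Groups separated downwards in this way held for 31.6% of genes tested in H460. Upward separation, as in A549, held for 25.2% of genes tested there. In H2023 the controls at 2.41 and 7.12 FPKM enclosed the knockdown values of 3.75 and 5.66 FPKM. None of these differences was called.

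PROCR (ENSG00000101000.4, chr20:33759875-33804043, plus strand) encodes the endothelial protein C receptor, which presents protein C to thrombomodulin. A549 had 41.1 and 48.7 FPKM with control siRNA and 41.7 and 46.3 FPKM with NRF2 siRNA, a difference of -0.02 ± 0.15 (SE, n = 2 each, limma adjusted p = 0.967). In H2023 the controls at 42.7 and 43.3 FPKM lay below the knockdown values of 52.6 and 86.4 FPKM (0.64 ± 0.26, limma adjusted p = 0.302), as for 27.0% of genes tested there. The H2023 change was 0.99 without the siRNA 28 library and 0.28 without the siRNA 30 library. In H460 the siRNA 28 library alone was apart, at 41.0 FPKM, beside 83.3 FPKM with siRNA 30 and 88.2 and 81.0 FPKM with control siRNA (-0.52 ± 0.35, limma adjusted p = 0.340). The H460 change was -1.03 without the siRNA 30 library and -0.02 without the siRNA 28 library.

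The lines were set against each other in their response to the knockdown with an F test in 1 limma fit of all 12 libraries, on the 7 members tested in every line. None of the 7 passed, against 2.51% of 11571 genes. THBD had the smallest adjusted p (0.196), followed by F2R (0.236) and PROCR (0.267), and F2RL2 had 0.349. At an unadjusted p under 0.05 there were 2 members and 21.2% of all genes. The mean of the 3 line effects, a comparison added after the values had been seen, was -2.89 ± 0.21 for F2RL2 (SE, limma adjusted p = 1.79e-05), 1.04 ± 0.24 for F2R (limma adjusted p = 0.0103), 0.94 ± 0.14 for TFPI2 (limma adjusted p = 0.0014) and 0.78 ± 0.20 for F3 (limma adjusted p = 0.0147). It was 0.79 ± 0.33 for TFPI (limma adjusted p = 0.0987), which passed in 2 of 16 alternatives, among them the fit without the H2023 siRNA 30 library (1.13, limma adjusted p = 0.00588). THBD and PROCR were not called. By this test 14.5% of all genes were called lower and 15.2% higher. F2RL2 and TFPI2 kept the call in each of their alternatives, 14 and 16 in number. F2R and F3 lost it in 1 of 16 each, the fit without the filter on low values. F2RL2 passed the filter in A549 only through the control libraries, where it is high, and was not tested without either of them. The study had picked F2RL2 from these libraries for its fall, so this call is no independent evidence of direction.

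The levels of the members under control siRNA were compared between H460 and H2023, which shared the RNA preparation. Of the 8 members tested, 4 differed in limma, where 24.2% of all tested genes were called lower in H460 and 24.6% higher. Because the 4 include F2RL1, which entered through the group where it is high, the count is not read against these shares. TFPI was lower in H460, at a mean of 76.7 FPKM against 461 FPKM in H2023, by -2.51 ± 0.29 (SE, n = 2 each, adjusted p = 0.00141). F2RL1 (0.188 against 2.12 FPKM, adjusted p = 0.0043) and TFPI2 (65.2 against 130 FPKM, adjusted p = 0.0166) were also lower in H460, though TFPI2 missed the threshold without either H2023 control (limma adjusted p = 0.0574 and 0.0600). F2RL1 entered this test only through the H2023 controls, was not tested without either of them, and had an adjusted p of 0.0553 in limma without the filter. PROCR was higher in H460, 84.6 against 43.0 FPKM (adjusted p = 0.00226). F2RL2 was at 40.6 FPKM in H460 and 54.6 FPKM in H2023 and missed the threshold (-0.41 ± 0.14, adjusted p = 0.0529). F2R, F3 and THBD were not called either, except F3 without the second H460 control (-0.75, limma adjusted p = 0.0344).

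Within each line, ordered by mean control FPKM, a per-length measure, A549 ran from TFPI2 (149) through TFPI (54.4), PROCR (44.9), F2RL1 (21.1), F2R (6.49), F2RL2 (4.93) and THBD (3.14) to F3 (3.09). TFPI and PROCR overlapped in their values, and so did each of F2R, F2RL2, THBD and F3 with its neighbour. H2023 ran from TFPI (461) through TFPI2 (130), F2RL2 (54.6), PROCR (43.0), F3 (7.83), THBD (4.76) and F2RL1 (2.12) to F2R (1.80). There F2RL1 overlapped with both of its neighbours. H460 began with PROCR (84.6), TFPI (76.7) and TFPI2 (65.2), each overlapping the next, and went on with F2RL2 (40.6), F3 (4.98), THBD (2.94), F2R (1.56) and F2RL1 (0.188). The inhibitor transcripts thus stood above that of tissue factor in every control library. F2RL2 ranked 6 of the 9 members in the A549 controls, 3 in H2023 and 4 in H460.

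The siRNAs were compared over the 6 knockdown libraries with line as a covariate. Every siRNA 28 library is numbered 0 and every siRNA 30 library 1, so the siRNA and anything shared by libraries of a number cannot be told apart. F2R averaged 10.5 FPKM with siRNA 28 and 4.77 FPKM with siRNA 30 and was higher with siRNA 28 in 3 of 3 lines (0.99 ± 0.16, limma adjusted p = 0.126). F2RL1 was likewise higher with siRNA 28 in 3 of 3 lines (1.10 ± 0.26, limma adjusted p = 0.161), and its control numbered 0 was also above the control numbered 1 in each line. PROCR was lower with siRNA 28 in 3 of 3 lines (-0.62 ± 0.19, limma adjusted p = 0.203). No member was called, and neither was any of the 15716 genes tested. At an unadjusted p under 0.05 there were 3 of 8 members and 18.2% of all genes. A gene was higher with siRNA 28 in all 3 lines for 24.2% of all genes and lower for 18.1%. F2RL2 did not have a common direction, at 3.56 FPKM with siRNA 28 and 2.45 FPKM with siRNA 30 on average (0.30 ± 0.31, limma adjusted p = 0.641). NFE2L2 remained at 5.31 and 7.84 FPKM with siRNA 28 and siRNA 30 in A549, 7.74 and 6.80 FPKM in H2023 and 6.54 and 12.2 FPKM in H460.

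Other genes of the same pathways were taken from 4 lists. Of 27 coagulation factors and inhibitors, 14 were tested in A549, 14 in H2023 and 8 in H460, and 1 was called, PROS1, among the 8 tested in H460, where 7.12% of all genes were called higher. PROS1, which encodes protein S, the cofactor of activated protein C, rose from 6.58 and 3.99 FPKM to 18.3 and 18.0 FPKM (1.64 ± 0.29, limma adjusted p = 0.0247). The list's median change was -0.06, 0.28 and 0.50 in A549, H2023 and H460. With single libraries left out it ran from -0.20 to 0.07 in A549 and from -0.31 to 0.44 in H2023, and the number called higher in H460 from 0 to 4.

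Of 14 genes of fibrinolysis, the dissolving of clots by plasmin, 9, 9 and 10 were tested, and 3 were called, all higher in H460, where 7.12% of all tested genes were called higher. With single libraries left out, that number ran from 0 to 6. PLAUR, the receptor of urokinase, rose from 20.1 and 15.9 FPKM to 95.9 and 82.0 FPKM (2.25 ± 0.23, limma adjusted p = 0.0120). PLAU, urokinase itself, rose from 3.42 and 2.61 FPKM to 18.5 and 17.0 FPKM (2.23 ± 0.26, limma adjusted p = 0.0137). PLAT, the tissue plasminogen activator, rose from 6.32 and 7.65 FPKM to 15.7 and 22.8 FPKM (1.33 ± 0.28, limma adjusted p = 0.0341). In 1 fit of all 12 libraries 5 genes of the list were called higher and 1 lower in H460. The list's median change was -0.02, 0.33 and 1.05 in the order A549, H2023, H460. With single libraries left out it ran from -0.13 to 0.13, from 0.20 to 0.61 and from 0.76 to 1.17. In H2023 9 of 9 tested genes were above 0, where 52.0% of all tested genes were. None of the 9 was called, and LRP1 was at 0.0017 ± 0.21.

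Of 26 genes of membrane and secreted proteases and their inhibitors, 5, 8 and 6 were tested, and 4 were called, again all higher in H460. In 1 fit of all 12 libraries 3 were called higher in H2023 and 4 in H460. MMP1, SPINT1 and SPINT2 were below 1 FPKM in both H460 controls and entered the test only through the knockdown libraries, where they are high. The count is therefore not read against the 7.12% of all genes, and of the 3 other genes tested there PRSS23 was the only one called. The number called ran from 0 to 2 with single libraries left out and was 5 without mitochondrial transcripts. MMP1, a collagenase that can cut PAR1, rose from 0.802 and 0.933 FPKM to 9.69 and 6.23 FPKM (2.24 ± 0.30, limma adjusted p = 0.0168). PRSS23, a secreted serine protease, rose from 147 and 120 FPKM to 298 and 507 FPKM (1.54 ± 0.31, limma adjusted p = 0.0308). The other two were the protease inhibitors SPINT2 (limma adjusted p = 0.0195) and SPINT1 (limma adjusted p = 0.0444), the latter named after its values were seen. The list's median change was 0.34, 0.39 and 1.30. With single libraries left out it ran from 0.22 to 0.53 in A549, from -0.08 to 0.66 in H2023 and from 0.71 to 1.43 in H460. Without the genes that entered through 1 group only, which also include PRSS22 in H2023, it was -0.01 over 7 genes in H2023 and 1.05 over 3 genes in H460.

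Of 24 G proteins and signalling partners of the receptors, 23, 23 and 24 were tested, and 2 were called, both in H460, 1 lower and 1 higher, where 6.86% of all genes were called lower and 7.12% higher. In 1 fit of all 12 libraries 2 were lower and 6 higher, without mitochondrial transcripts 5 were higher, and with single libraries left out between 0 and 4 were higher and between 0 and 3 lower. GNA13, a G protein alpha subunit, fell from 19.6 and 18.5 FPKM to 8.39 and 6.65 FPKM (-1.24 ± 0.25, limma adjusted p = 0.0307). BSG, the membrane glycoprotein basigin, rose from 293 and 319 FPKM to 576 and 856 FPKM (1.20 ± 0.28, limma adjusted p = 0.0410). The median change was 0.07, -0.02 and 0.06. The largest change of the list, RGS2 in A549, a regulator of G protein signalling chosen here after its values were seen, was 12.1 and 9.57 FPKM against 171 and 55.9 FPKM and missed the threshold (3.07 ± 0.50, limma adjusted p = 0.0971).

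**Figure D5:**
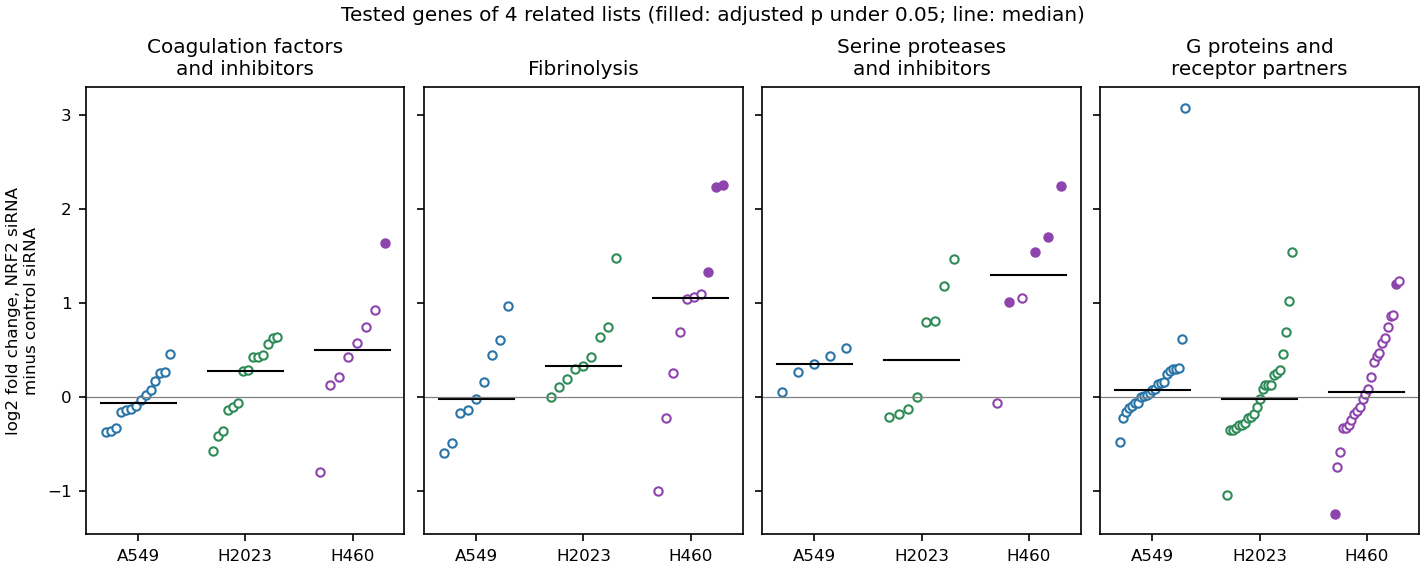
Log2 fold change after NRF2 siRNA (vertical axis, log2(FPKM + 1) scale) of each tested gene of 4 lists, sorted within each line, with the list's median as a line and genes with an adjusted p under 0.05 filled. All filled points are in H460, and GNA13 is the only one of them below 0.

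H460 was also the line in which the mitochondrial share of the FPKM sum was higher in both knockdown libraries than in both controls. Rescaling without mitochondrial transcripts moved the median change of all H460 genes by 0.20 and the share of lower genes among all calls from 49.1% to 28.9%. After this rescaling, which moves all genes nearly alike, F2RL2 was at -2.89 (limma adjusted p = 0.0106), F2R at 2.23 (limma adjusted p = 0.0252) and TFPI at 1.81 (limma adjusted p = 0.0235). Marker sums also differed between control and knockdown libraries. The summed level of 5 leukocyte markers in H460 was 1.79 and 5.51 FPKM with control siRNA and 17.6 and 19.8 FPKM with NRF2 siRNA, and CD14 was the only 1 of the 5 to reach 1 FPKM in 2 libraries, with PTPRC at 0.0146 FPKM or less. This sum was also higher after knockdown in A549, between 3.18 and 3.21 FPKM against 0.783 and 1.44 FPKM, and in H2023, 1.41 and 1.57 FPKM against 1.12 and 1.22 FPKM. That of 5 fibroblast markers in H460 went from between 2.80 and 4.56 FPKM to between 8.28 and 11.5 FPKM, with 3 of 5 at 1 FPKM, among them COL1A1 at 1.81 and 2.06 FPKM against 5.94 and 5.81 FPKM. DCN did not exceed 0.121 FPKM there. The 5 platelet markers summed to between 8.94 and 9.35 FPKM in the H2023 controls and between 12.7 and 27.4 FPKM after knockdown, most of it PF4, while GP9 was listed at 0 in every library. In A549 they went from 0.407 and 1.04 FPKM to 1.53 and 1.81 FPKM and in H460 from 0.775 and 0.953 FPKM to 2.29 and 2.62 FPKM, with none at 1 FPKM in 2 libraries. The 5 epithelial markers summed to between 2129 and 2547 FPKM in the H2023 controls and between 4624 and 5273 FPKM after knockdown, and in H460 to between 1142 and 1336 FPKM and between 1743 and 2606 FPKM. In H460 KRT8 went from 553 and 673 FPKM to 990 and 1723 FPKM and KRT18 from 300 and 298 FPKM to 483 and 419 FPKM. The KRT19 groups overlapped there, and EPCAM and CDH1 did not exceed 1.19 FPKM. The part of these markers in the results was not tested.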

How the data were processed

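RNA-seq of 12 libraries from 3 cell lines was used as the authors deposited it, in files of FPKM values per gene and library. Per the study's methods, 80-base paired-end reads were aligned to hg19 with TopHat and quantified with Cufflinks, whereas the submitters' processing notes name STAR 2.5.3a and Cuffnorm; which of these made the deposited FPKM values was not settled. Cufflinks-type estimates share reads between similar transcripts. The authors' tables of DESeq2 comparisons were not used.

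Identifiers were matched to GENCODE symbols on GRCh37 (96.1% of 57815 genes; whole-gene positions), and 12710 values under 1e-06 were set to 0. Among listed genes PRSS2 and PECAM1 could not be matched. The control libraries were duplicates, and p-values measure only the spread between these libraries. Each line was fitted on its own with limma 3.58.1 (R 4.3.3) on log2(FPKM + 1), with a trend in the prior variance and 2 residual degrees of freedom; the 12-library fit had 6. The scripts were tested on simulated data, in which the per-line tests made more false calls than the threshold allows. Members and lists were chosen with earlier results of these data known. Named were all members, NFE2L2 and NQO1, up to 3 called genes per list, per line and near F2RL2, and the 5 genes most correlated with F2RL2; SPINT1, RGS2, AGGF1, IQGAP2 and single markers were named outside this rule. Same-numbered libraries share only a number. Alternatives changed the pseudocount, the low-value filter, scaling, the trend, the fit and the libraries. Figures used matplotlib 3.10.9, with pandas 2.3.3 and numpy 2.4.6 under Python 3.11.15.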

Additional observations from a re-analysis of the deposited data

Results flagged for a closer look

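THBD was singled out because every knockdown library moved one way in A549 and the opposite way in H460: the difference from control was 0.98 (log2) in A549, where both knockdown values were above both controls, and -0.81 in H460, where both were below. Neither passed the test in its line. Upward separation held for 25.2% of genes tested in A549 and downward separation for 31.6% of those in H460. The F test of the difference between the 3 lines gave an adjusted p of 0.196 in limma, so the difference itself was not past the threshold.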

How the results depend on the processing

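Of the alternatives to the results that answer a comparison, 89 were classed as the same, 27 moved a count, 8 lost a call, 4 gained one and 0 reversed. The class of the same includes small shifts, as from 2 to 3 members higher in H460 with the replicate number as a block. In A549 the count of members called lower went from 0 to 1 (F2RL2) with a pseudocount of 0.1 (change -3.90) and in 1 fit of all 12 libraries (-2.22, adjusted p = 0.0238), and lay between 0 and 1 with single libraries left out, as did the count called higher. Without a knockdown library the F2RL2 change in A549 was -2.24 and -2.21, and without a control library F2RL2 was not tested, since it then failed the filter. In H2023 the counts called lower and higher, 1 each, became 0 with a pseudocount of 0.1 (F2RL2 -3.67), without the filter (-3.39, adjusted p = 0.244) and without the trend (-3.39, adjusted p = 0.0567), and lay between 0 and 1 and between 0 and 3 with single libraries left out. In H460 they became 0 without the filter (F2RL2 -3.04, adjusted p = 0.108) and lay between 0 and 2 and between 0 and 3 with single libraries left out. Across such fits F2RL2 ranged from -3.98 to -2.80 in H2023 and from -3.20 to -2.88 in H460. Members differing between H460 and H2023 controls, 4, were 2 without the filter and between 2 and 5 with single libraries left out. A lone library left in a group is assumed to vary like the other group. Without a knockdown library the spread came from the controls alone, and more genes over the whole table were called in every line.

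With single libraries left out, the difference from control turned sign for F2R in A549 (-0.069 to 0.79), PROCR in A549 (-0.14 to 0.095), TFPI in H2023 (-0.75 to 1.32) and THBD in H2023 (-0.53 to 0.72). So did the mean over the lines for THBD (-0.12 to 0.29) and PROCR (-0.14 to 0.20) and the H460 minus H2023 difference for F2R (-0.25 to 0.0015) and THBD (-1.07 to 0.18). None of these had been called. The siRNA 28 minus siRNA 30 difference changed sign for F2RL2 (-0.15) and TFPI (-0.029) without H2023, for F3 (0.36) and THBD (-0.063) without H460 and for TFPI2 (0.088) without A549. The cause of these changes was not tested.

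Over all genes, no gene was called in any line without the filter. Deviations of same-numbered libraries correlated at -0.03, 0.31 and 0.16 in the 3 lines (A549, H2023, H460). With the replicate number as a block, the counts of members were 0 lower and 0 higher in A549, 1 and 1 in H2023, and 1 and 3 in H460, where F3 was added (adjusted p = 0.0196). The block also brought the mean over the lines of TFPI past the threshold (0.79, adjusted p = 0.0196), and the genes called over the whole table became 298 lower and 413 higher in H2023 and 1530 lower and 1647 higher in H460, from 82, 46, 922 and 957. The unknown absolute depth limits what can be said of genes listed at 0.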
